A study of Mus musculus with 19 samples.

Results

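The crypts of ad libitum–fed Nt+/+ mice, which carry the wild-type neurotensin gene and served as controls of the study, were examined on their own for what a fed small intestinal crypt expresses and for how much that differs from mouse to mouse. The members are the 5 libraries titled NT+/+ AL, of 19 libraries in the series, with 1 library for each mouse (3 females, mice 1, 2 and 4, and 2 males, mice 3 and 5). All mice of the series are labelled C57BL/6. The paper introduces its mice as Lgr5-EGFP Nt+/+ and Lgr5-EGFP Nt-/-, with a reporter at the Lgr5 gene. Whether each sequenced mouse carried it was not checked here. The other 14 mice, used here only to see whether the same genes also vary elsewhere, were 4 ad libitum–fed mice without neurotensin (Nt-/-) and 2 groups of 5, Nt+/+ and Nt-/-, that had no food for 48 hours. Mouse 5 of the food-deprived Nt+/+ group carries a genotype label that differs from its title and was kept with its title. Age is not given in the labels. Crypts were released from the proximal part of the small intestine with EDTA, so each library holds whole crypts, with no sorting of cells. There is no contrast within these 5 mice, and all values are given as a description.

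The crypt is a pocket in the intestinal wall where the epithelium is renewed. Stem cells marked by Lgr5 and Olfm4 sit at its base between Paneth cells, which fill granules with alpha-defensins (cryptdins) and lysozyme. Daughter cells divide in the crypt and mature on the way to the villus into absorptive enterocytes or into secretory goblet, enteroendocrine and tuft cells. Total RNA depleted of ribosomal RNA was sequenced, so RNAs without a poly(A) tail, such as histone messenger RNAs and structural RNAs, are kept.

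The expected counts, the estimated reads per gene in the deposited files, summed to between 15160134 and 24048274 per mouse (median, 19808156). The log2(CPM + 1) values of pairs of mice were correlated across 10953 genes, which are not replicates, with Pearson's r between 0.964 and 0.989. Pairs with mouse 1 were the lowest, at 0.964 to 0.973, and the other pairs lay between 0.979 and 0.989. Mouse 1 also stood apart in a respect that touches many values below. A nuclear ribosomal RNA gene took 11.5% of its counts, against 0.327% to 1.32% in the other mice. Each level relative to all genes is thus lower in mouse 1 by the share of that gene. Levels are compared between genes as TPM, transcript levels in which counts are divided by the effective gene length and scaled to the same sum in each mouse. Variation between mice is measured on CPM, counts divided by library sizes that were scaled with the trimmed mean of M values (TMM). This scaling is less affected by such a gene. Where TPM values of the mice are set side by side below, the lower level of mouse 1 is not removed. In whole crypts, fewer cells of a type and less RNA per cell cannot be told apart.

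Of 21961 nuclear protein-coding genes in the files, 11605 had a median of at least 1 TPM, 7415 of at least 10 TPM, 833 of at least 100 TPM and 44 of at least 1000 TPM. In every one of the 5 mice 11070 genes reached 1 TPM, and in none of them did 9791. The 25 most abundant protein-coding genes held between 22.5% (mouse 4) and 31.7% (mouse 3) of the protein-coding TPM, and the 1000 most abundant held between 63.5% and 69.4%.

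Paneth cell peptides led the protein-coding genes on the TPM scale, which divides by length and so ranks short messages higher than counts do. By TPM the 25 most abundant genes held a median of 27.3% of the protein-coding level, and by CPM, which does not divide by length, the highest 25 held a median of 9.80%, with 13 genes in both sets. Of the 25 by TPM, 15 were alpha-defensin genes of the cluster on chromosome 8, which together held 22.2% of the protein-coding TPM in mouse 1, 19.5% in mouse 2, 26.4% in mouse 3, 18.2% in mouse 4 and 22.6% in mouse 5. Mouse 3 had the largest share and mouse 4 the smallest. Among them were Defa24 (chr8:21734494-21735471 of GRCm38, plus strand), Defa30 (chr8:21134642-21135598, plus strand), Defa17 (chr8:21655780-21656735, plus strand) and Defa37 (chr8:21565386-21566349, plus strand), whose coding sequences follow because they show how alike the most abundant messages are. They were read from the GENCODE transcripts of GRCm38, 5′ to 3′ from the start codon, and capitals mark the bases that differ from Defa24 in an alignment. Each is 279 bases long.

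Defa24: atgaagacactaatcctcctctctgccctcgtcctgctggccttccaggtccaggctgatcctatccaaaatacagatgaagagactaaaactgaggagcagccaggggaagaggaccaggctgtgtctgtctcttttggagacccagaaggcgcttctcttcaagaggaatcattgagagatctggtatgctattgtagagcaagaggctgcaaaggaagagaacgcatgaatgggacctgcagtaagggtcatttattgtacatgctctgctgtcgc
Defa30: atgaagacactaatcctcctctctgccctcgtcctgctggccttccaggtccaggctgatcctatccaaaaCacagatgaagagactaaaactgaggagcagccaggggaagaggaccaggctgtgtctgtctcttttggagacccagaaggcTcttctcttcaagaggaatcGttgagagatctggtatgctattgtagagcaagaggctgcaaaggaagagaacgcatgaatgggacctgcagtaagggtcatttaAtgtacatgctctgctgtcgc
Defa17: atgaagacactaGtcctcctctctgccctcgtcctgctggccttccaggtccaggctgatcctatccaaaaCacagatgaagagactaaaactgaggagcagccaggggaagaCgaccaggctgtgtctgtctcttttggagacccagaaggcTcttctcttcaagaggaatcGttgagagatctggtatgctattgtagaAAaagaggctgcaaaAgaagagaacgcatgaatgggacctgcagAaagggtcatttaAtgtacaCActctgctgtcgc
Defa37: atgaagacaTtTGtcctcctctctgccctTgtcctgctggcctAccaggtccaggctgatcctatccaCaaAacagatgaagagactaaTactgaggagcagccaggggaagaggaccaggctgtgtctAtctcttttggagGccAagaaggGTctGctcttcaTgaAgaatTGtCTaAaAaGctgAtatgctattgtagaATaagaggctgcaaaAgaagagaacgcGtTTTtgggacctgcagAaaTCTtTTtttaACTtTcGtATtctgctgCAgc

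Defa30 differed from Defa24 at 4 bases and Defa17 at 12, identities of 98.6% and 95.7%, whereas Defa37 was 83.5% identical. Gm7861, Gm14851 and AY761184, which lie in the same cluster, have longer coding sequences of 348 bases and were 67.2% identical to Defa24. This likeness limits how the reads can be divided among the genes. Of the 15 genes, 9 share more than 50% of their windows of 98 bases, about the length of a read, with the transcripts of another gene. Defa31, for example, has 100% of its windows in Defa23, whose coding sequence is the same, and Defa17 shares 90.7% of its windows with Defa3. Defa24 and AY761184 share none, and Defa30 shares 0.997% of them.

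Defa24 had the highest value of the 25 in all 5 mice, at 31553, 25610, 36265, 21526 and 30517 TPM in mice 1 to 5 (mean, 29094 ± 5677, SD, n = 5). Defa17 followed with 20247, 14909, 19070, 12877 and 17775 TPM. Defa30 was at 18852, 12714, 13005, 10279 and 11887 TPM, with mouse 1 the highest. The 3 genes keep this order in each mouse, and mouse 4 had the lowest value of each. The lowest of the 15 was Defa3, at 2513 ± 459 TPM (SD, n = 5).

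Promoters of these genes are also alike. RefSeq promoters (GRCm38.p6, 250 bases before to 50 bases after the start) were found for 10 of the 15 genes, Gm7861 and Gm14851 under the names Defa43 and Defa38 by position. The letters TATAAA, the TATA box, searched on both strands, occurred in all 10 of these windows, against 13.6% of 32851 promoters. CTTTGAT, the core of a site for TCF and LEF factors of the Wnt pathway, searched on both strands, occurred in 8 of the 10, against 3.73% of all promoters. The octamer ATGCAAAT occurred in none of the 10, against 1.74%, and neither did TTCNNNGAA, against 8.30%. The genes are near copies of each other, so these are not independent occurrences, and a match of letters is no evidence of binding. The 250 bases before the start are shown for Defa21 (chr8:21025295-21025544), Defa23 (chr8:21054790-21055039) and Defa30 (chr8:21134400-21134649), all on the plus strand, with the TATAAA and CTTTGAT matches in capitals, the latter read there from the opposite strand as ATCAAAG.

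Defa21: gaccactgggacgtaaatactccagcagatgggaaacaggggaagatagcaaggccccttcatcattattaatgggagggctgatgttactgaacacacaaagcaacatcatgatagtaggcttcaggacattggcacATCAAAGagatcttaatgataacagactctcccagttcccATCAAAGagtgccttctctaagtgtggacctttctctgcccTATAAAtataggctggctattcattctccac
Defa23: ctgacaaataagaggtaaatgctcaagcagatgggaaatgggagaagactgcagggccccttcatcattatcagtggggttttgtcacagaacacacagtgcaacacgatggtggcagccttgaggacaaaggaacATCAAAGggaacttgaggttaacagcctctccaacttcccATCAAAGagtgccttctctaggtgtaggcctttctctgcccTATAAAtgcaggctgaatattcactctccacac
Defa30: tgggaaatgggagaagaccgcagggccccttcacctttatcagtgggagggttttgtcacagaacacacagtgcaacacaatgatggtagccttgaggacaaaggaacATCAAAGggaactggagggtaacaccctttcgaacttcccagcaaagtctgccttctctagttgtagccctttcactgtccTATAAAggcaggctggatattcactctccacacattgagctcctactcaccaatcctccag

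In Defa21 the CTTTGAT matches begin 112 and 72 bases before the start and TATAAA 31 bases before it. Defa23 has them at 114, 74 and 33 bases, and Defa30 has 1 CTTTGAT match, at 142 bases, and TATAAA at 61 bases.

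The other 10 genes among the 25 include further secreted products of crypt cells. Lyz1, Paneth cell lysozyme, was at 3679, 6258, 8297, 6156 and 11015 TPM in mice 1 to 5, lowest in mouse 1 and highest in mouse 5. Itln1, an intelectin that binds microbial sugars, was steadier at 4107 ± 637 TPM (SD, n = 5). Ang4, an antimicrobial ribonuclease, was at 6457, 3896, 3015, 1670 and 2370 TPM, highest in mouse 1, where Lyz1 was lowest. Muc2, the gel-forming mucin of goblet cells, was at 2756, 4449, 2631, 2195 and 2769 TPM, on an effective length of 1222 bases in the files. Spink4, a secreted goblet cell peptide, was at 3768, 1868, 1807, 1296 and 1416 TPM, again highest in mouse 1. Reg3b and Reg3g, bactericidal lectins, had the widest range of the 25: Reg3b was at 364 TPM in mouse 1 and between 2269 and 3260 in the other mice, and Reg3g at 238 TPM in mouse 1 and between 1303 and 2413 in the other mice. Genes of general cell function among the 25 were Eef1a1, a translation elongation factor, at 4238 ± 258 TPM, and Actb, cytoplasmic actin, at 2061 ± 197 TPM (SD, n = 5 for both). Lgals2, an epithelial galectin, had the narrowest range, 1667 to 1873 TPM.

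**Figure D1:**
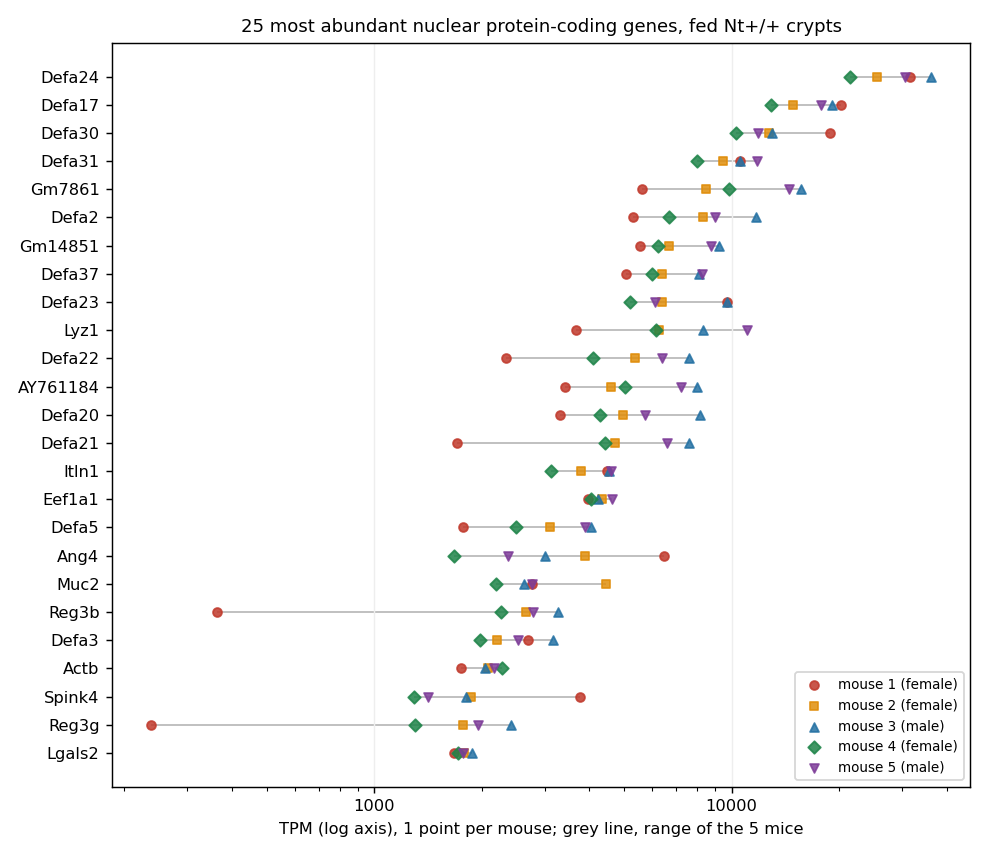
TPM (log axis) of the 25 nuclear protein-coding genes with the highest median, with 1 point for each of the 5 mice and a grey line for their range. Alpha-defensin genes fill the first 9 rows, from Defa24 at 21526 to 36265 TPM, and mouse 1 lies far below the other mice for Reg3b and Reg3g.

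Ribosomal protein and histone genes, which serve every dividing cell, were measured as groups. The 98 ribosomal protein genes held between 4.80% and 5.21% of all TPM, led by Rpl41 at 1251 to 1520 TPM, and 94 of them reached a median of 1 TPM. Their median extra coefficient of variation was 10.1%. This measure, the extra CV, is the SD between mice divided by the mean after the part due to counting is subtracted in squares, and its median over 10953 genes with a mean of at least 100 counts was 8.49%. The 67 replication-dependent histone genes, whose messages have no poly(A) tail, summed to 11648, 9752, 12819, 10721 and 9039 TPM, with 61 of them at a median of at least 1 TPM and Hist1h4k the highest at a median of 609 TPM. By CPM the highest histone sum was 1.60-fold the lowest.

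The labelled crypt epithelium was checked against marker lists. All 12 epithelial genes were above 1 TPM, led by Krt8 and Krt19, and summed to between 5326 and 5785 TPM. The Paneth cell list of 17 genes, which holds some of the defensins above and not others such as Defa37, summed to 107423, 94241, 124371, 77875 and 109484 TPM in mice 1 to 5. By CPM the Paneth list was at 42530 in mouse 1, second to 47342 in mouse 3. The goblet cell list of 12 genes summed to 7470 to 10682 TPM. The absorptive enterocyte list of 20 genes summed to 3468 TPM in mouse 1 and 6711 to 9365 TPM in the other mice. By CPM the enterocyte list was at 8559 in mouse 1 and 13918 to 17409 in the others. Apoa1, the main protein of high-density lipoprotein, led that list with 527, 1219, 1293, 1626 and 1362 TPM, lowest in mouse 1. Slc2a5, the fructose transporter, was its lowest member, at a median of 15.3 TPM. Of its 20 genes, 19 had their lowest CPM in mouse 1 and none its highest there, where 17.7% of all protein-coding genes examined were lowest.

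Stem cell and proliferation genes were well measured. The 16 stem cell genes summed to 1128, 1217, 1421, 1321 and 1867 TPM, highest in mouse 5. Olfm4, a secreted glycoprotein of crypt base cells, made up most of this with 750, 791, 1012, 875 and 1333 TPM, and Tnfrsf19, a Wnt-induced receptor, was the lowest at a median of 2.51 TPM. Lgr5, the R-spondin receptor, named in addition to the rule for its use as the standard marker, was at 5.86, 6.95, 9.43, 8.87 and 13.6 TPM, from 431 to 798 counts. The 19 proliferation genes were the least variable of the cell type lists, summing to 1176 to 1288 TPM with a median extra CV of 8.65%. Top2a, the mitotic topoisomerase, was at 152 ± 11.2 TPM and Mki67, the proliferation antigen, at 98.9 ± 8.79 TPM (SD, n = 5 for both).

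Enteroendocrine genes were low and steady except for 1 member. Chga, chromogranin A of hormone granules, was at 34.3, 32.5, 32.0, 36.4 and 33.1 TPM, and Gcg, which encodes the GLP peptides, at 40.0, 38.1, 34.2, 36.2 and 34.8 TPM. Nts, the neurotensin gene itself, named because the study deletes it in other mice, was at 6.55, 8.63, 7.97, 7.18 and 9.31 TPM. Isl1, a transcription factor, was the lowest of the list at a median of 1.42 TPM. Reg4, a secreted lectin of enteroendocrine and other secretory crypt cells, was the exception, with 873, 328, 197, 212 and 205 TPM, highest in mouse 1. The tuft cell list summed to 584, 384, 291, 264 and 325 TPM, of which Cd24a, a surface protein that other crypt cells also express, made up 337, 264, 235, 200 and 264 TPM.

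Markers of the underlying tissue were low. The 10 fibroblast and smooth muscle genes together summed to at most 6.32 TPM and the 6 endothelial genes to at most 3.31 TPM. The neuron and glia list reached at most 3.39 TPM and the macrophage list at most 18.1 TPM, with Adgre1 at a median of 0.0233 TPM. Lymphocytes were present in small amounts: Cd3e, a chain of the T cell receptor complex, was at 2.76, 13.1, 7.29, 15.5 and 6.68 TPM, lowest in mouse 1, and Igkc, the kappa light chain, was the highest of the B and plasma cell list at 27.9, 89.0, 30.5, 40.3 and 50.9 TPM. Hemoglobin genes of red blood cells summed, with Alas2, to 10.97 TPM in mouse 1 and 29.4 to 45.1 TPM in the others. Of 10 pancreatic acinar genes, 7 had no count in any mouse. Regional markers were mixed. Of the proximal list, Adh6a and Gata4 were at medians of 84.5 and 62.7 TPM, and Pdx1, a factor of the duodenum, was at 0.0938 TPM. Of the distal list, the bile acid exporter genes Slc51a and Slc51b were at medians of 57.8 and 39.5 TPM and Fabp6, the ileal bile acid–binding protein, at 21.2 TPM, whereas Slc10a2, the ileal bile acid transporter, was at 0.296 TPM.

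**Figure D2:**
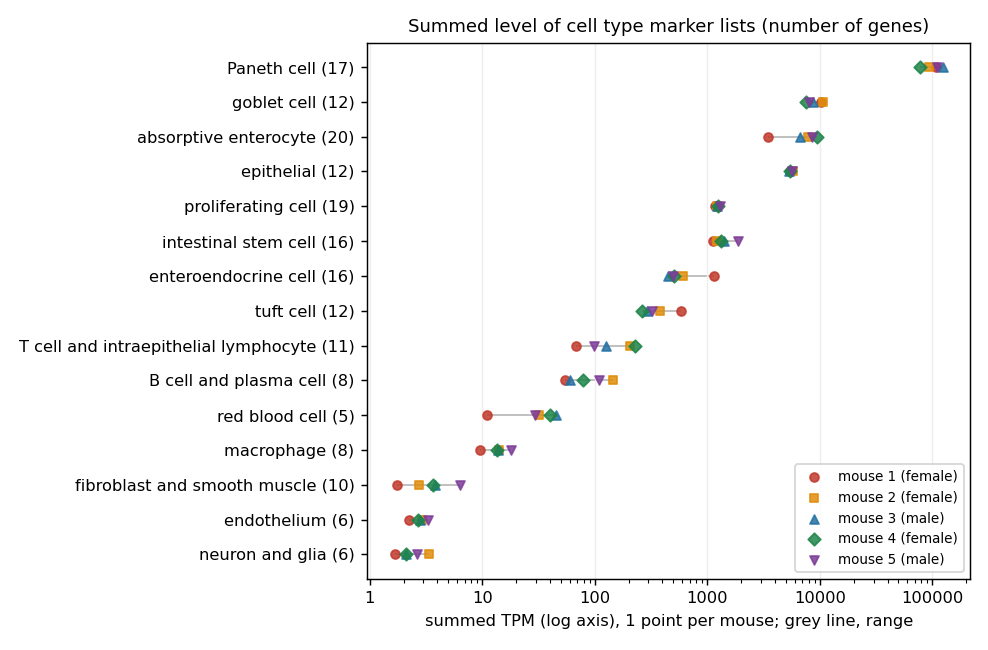
Summed TPM (log axis) of the genes of each cell type marker list, with the number of genes in parentheses, 1 point per mouse and a grey line for the range. The Paneth cell list lies highest, above 77875 TPM in every mouse, and the fibroblast, endothelial and neural lists lie at or below 6.32 TPM.

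Ribosomal depletion left a characteristic set of non-coding RNAs. Nuclear protein-coding genes took 73.9% of the counts in mouse 1 and 82.5% to 85.4% in the other mice. Mitochondrial protein-coding genes took 3.74% to 5.62% and the class of miscellaneous RNAs and ribozymes 3.61% to 4.71%. Pseudogenes took 2.63% to 3.69% and long non-coding RNAs 1.74% to 2.52%. The pseudogene class includes Gm28661, Gm28437 and Gm10925, with medians of 0.632%, 0.572% and 0.510% of the counts. As described below, 100% of their windows lie in mt-Co2, mt-Co3 and mt-Atp6. The division of counts between the pseudogene and mitochondrial classes is therefore uncertain, and the mitochondrial share may be understated. Genes for small nucleolar, small nuclear, small Cajal body and micro RNAs took 0.0932% to 0.122%, and 1505 genes of the files, too short for the reads, had an effective length of 0 in all 5 mice.

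The most abundant non-coding RNA was the RNA of the signal recognition particle, 7SL, which brings secretory proteins to the endoplasmic reticulum. The deposited files give its genes Rn7s1 and Rn7s2 the same count. Each held 1.66%, 1.48%, 1.90%, 1.85% and 1.41% of the counts of mice 1 to 5. These genes had the highest TPM of the genes described here, a median of 95222 each. Their effective length is 203 bases, just above the minimum of 200, and TPM is less reliable for such short RNAs than the share of counts.

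With Rn7sk, the 7SK RNA that holds the elongation factor P-TEFb, these genes made up 22.2%, 20.8%, 23.6%, 25.2% and 20.2% of all TPM. These TPM shares rest on short effective lengths, 234 bases for Rn7sk. By counts the whole class of miscellaneous RNAs and ribozymes took 3.61% to 4.71%. Rn7sk alone took 0.627%, 0.586%, 0.776%, 0.820% and 0.680% of the counts. Rpph1, the RNA of ribonuclease P, took a median of 0.0965% and Rmrp, the RNA of ribonuclease MRP, 0.0654%. Of long non-coding RNAs, Malat1, a nuclear speckle RNA, led with 0.444%, 0.703%, 0.629%, 0.796% and 0.649%, lowest in mouse 1, and Neat1, the scaffold of paraspeckles, took 0.0555% in mouse 1 and 0.0855% to 0.0957% in the others. Gm43305, a processed transcript on chromosome 14, took 0.174%, 0.109%, 0.0646%, 0.0634% and 0.102%. The listed gene ENSMUSG00000118642, which has no name in the annotation used here, took 0.471% to 0.673%.

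Several of the abundant pseudogenes are copies of mitochondrial genes or of nuclear families. Gm28661, Gm28437 and Gm10925, between chr1:24613189-24615565, have 100% of their windows of 98 bases in mt-Co2, mt-Co3 and mt-Atp6, subunits of cytochrome oxidase and ATP synthase. The counts of each pair were split unevenly: mt-Co2 was given 0.414% to 0.620% of the counts of its pair, mt-Co3 0.947% to 6.90%, and mt-Atp6 13.3% to 32.5%. The extra CV of mt-Co3 alone was 81.3%, and that of the sum with Gm28437 was 17.8%. Of mitochondrial genes without such a copy, mt-Cytb, cytochrome b, was at 7682, 10438, 6895, 9867 and 8346 TPM. Gm8979, 9130208D14Rik and Gm27149 on chromosome 7, pseudogenes with 34.6% to 100% of their windows in each other or in related genes such as Gvin1, a large interferon-inducible GTPase, took medians of 0.312%, 0.157% and 0.0590%.

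Ribosomal RNA was the part of the library that differed most. CT010467.1 (chr17:39846353-39848827, minus strand), annotated as a ribosomal RNA gene, took 11.5%, 0.327%, 1.32%, 0.534% and 0.644% of the counts. The mitochondrial ribosomal RNAs mt-Rnr1 and mt-Rnr2 together took 1.58% in mouse 1 and 0.106% to 0.159% in the others. Lars2, the mitochondrial leucyl-tRNA synthetase, was at 10488, 196, 1016, 299 and 450 CPM. Its counts were 7.86%, 6.27%, 7.79%, 5.86% and 7.29% of those of CT010467.1, a far narrower range than that of either gene, although the 2 share no window of 98 bases in the transcripts. Whether the Lars2 counts are of that messenger RNA was not tested. Gm42427 and AC158975.2, which share up to 70.6% of their windows, were also highest in mouse 1, at 255 CPM against 38.6 to 54.1 CPM and 149 CPM against 21.6 to 31.6 CPM.

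**Figure D3:**
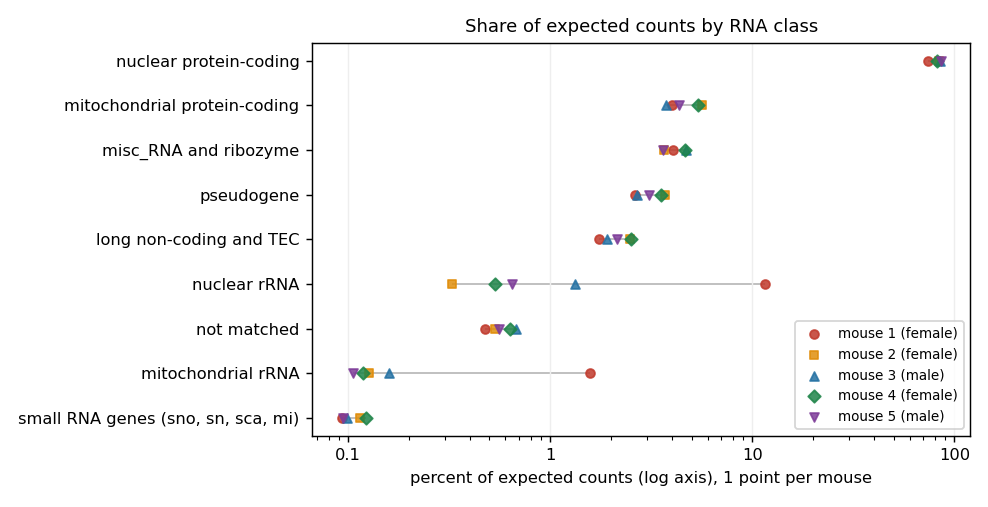
Percent of expected counts (log axis) in each class of RNA, with 1 point for each mouse and a grey line for the range. Nuclear and mitochondrial ribosomal RNA reach 11.5% and 1.58% in mouse 1 and lie at or below 1.32% and 0.159% in the other mice.

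Most genes varied little between the 5 mice. Of the 10953 genes with a mean of at least 100 counts, the middle 50% had an extra CV between 5.39% and 12.9%, 680 had none beyond counting, and 1160 were above 20%. Among 3959 protein-coding genes with a mean of at least 1000 counts, 64 had an extra CV of 0, and the 10 of these with the smallest total spread were Mtch2, Sipa1l3, Dlg1, Lta4h, March8, Plekhb2, Virma, Mbd6, Vapb and Fip1l1. Mtch2, a protein insertase of the mitochondrial outer membrane, was at 309, 308, 306, 302 and 301 CPM. For these 10 genes the highest mouse exceeded the lowest by 1.03-fold to 1.04-fold.

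An extra CV above 50% was found for 143 genes (1.31% of those examined), 115 of them protein-coding. Of the 115, 75 had their highest CPM in mouse 1 and 66 of these had their second highest in mouse 2. Mouse 1 was also the lowest for 30 of them. Over all protein-coding genes examined, 40.7% were highest and 17.7% lowest in mouse 1. Without mouse 1, 56 genes exceeded 50%, of which 49 were among the 143, and the median over all genes was 6.97%. The 30 protein-coding genes with the largest extra CV were chosen by that value, and the last of them, Alox5ap, was at 89.9%, with the next gene at 89.2%.

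**Figure D4:**
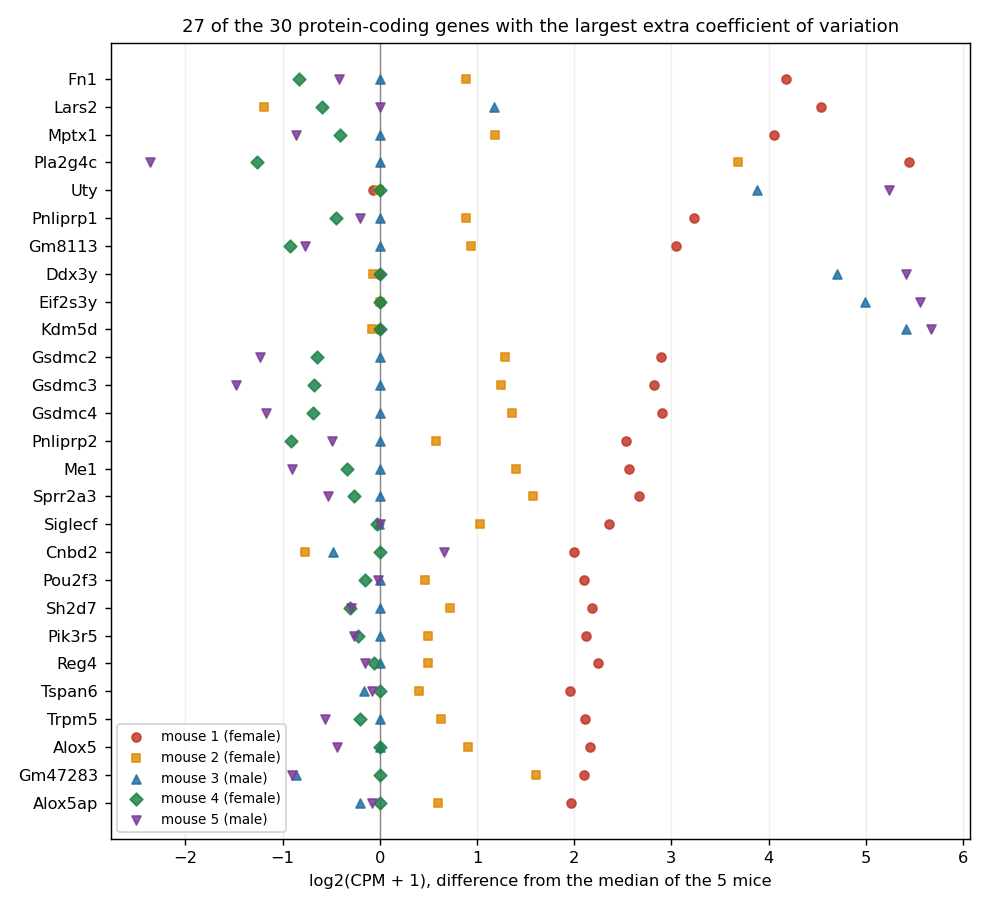
Difference of log2(CPM + 1) in each mouse from the median of the 5 mice, for 27 of the 30 protein-coding genes with the largest extra CV, from Fn1 at 189% to Alox5ap at 89.9%. Mouse 1 is the highest for most of them and mouse 5 for 4, the Y-linked genes Uty, Ddx3y, Eif2s3y and Kdm5d.

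Of the lists, the tuft cell list had the most members among the 30, with 5, as many as the sex-linked list has among the 30 and the 10 non-coding genes. Tuft cells sense the gut lumen with a taste-like pathway and release IL-25 and lipid mediators in type 2 immunity. Trpm5, the cation channel of that pathway, was at 119, 41.9, 26.6, 23.0 and 17.7 CPM in mice 1 to 5. Pou2f3, the factor that specifies the lineage, was at 23.99, 7.02, 4.83, 4.25 and 4.74 CPM. Mouse 1 was several times above mice 3, 4 and 5, and mouse 2 lay between. Siglecf, a sialic acid–binding receptor, was at 22.3, 8.28, 3.52, 3.43 and 3.53 CPM. Alox5ap and Alox5, of which the second is not on the list and both act in leukotriene synthesis, were at 16.7, 5.86, 2.93, 3.54 and 3.29 CPM and at 33.4, 13.4, 6.65, 6.66 and 4.65 CPM.

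Of the 12 tuft genes listed, 10 reached a mean of 100 counts. Of these, 9 had an extra CV above 50% (against 1.31% of all genes). The exception, Cd24a, had an extra CV of 28.1%. All 10 were highest in mouse 1, against 40.7% of all protein-coding genes examined. The list had a median of 89.6%, beside 8.49% over all genes, and in part overlaps the 30 genes chosen for their spread. Il25 itself, the lowest of the list, was at or below 0.219 TPM in each mouse. Sh2d7, Pik3r5 and Tspan6, which are not on the list, had the same order of mice 1 and 2, with Sh2d7 at 65.5, 23.2, 13.7, 10.9 and 10.95 CPM.

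Gasdermin C genes formed the second group. Gasdermins are pore-forming proteins that are cleaved to act on membranes. Gsdmc2, Gsdmc3 and Gsdmc4 lie side by side within 87952 bases (chr15:63824346-63912297). Gsdmc4 was at 2156, 742, 288, 178 and 127 CPM. Gsdmc2 was at 1379, 450, 184, 117 and 77.9 CPM, and Gsdmc3 at 598, 200, 83.6, 51.8 and 29.4 CPM. The 3 genes ranked the mice alike, and they share between 20.7% and 31.0% of their windows with another Gsdmc gene. The neighbouring pseudogene Gsdmcl2, which shares none, was at 167, 53.1, 20.5, 13.4 and 7.55 CPM and ranked them alike too.

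Other genes among the 30, of varied function, were also highest in mouse 1. Pla2g4c, a cytosolic phospholipase, had a wide range, at 1616, 475, 36.1, 14.4 and 6.20 CPM. Mptx1, a pentraxin of Paneth cells, was at 54.2, 6.55, 2.33, 1.51 and 0.833 CPM. Pnliprp2, a lipase-related protein, was at 1585, 407, 273, 144 and 195 CPM, and its neighbour Pnliprp1 at 33.6, 5.82, 2.67, 1.69 and 2.18 CPM. Sprr2a3, a small proline-rich protein with 37.1% of its windows in Sprr2a1 and Sprr2a2, was at 78.0, 36.2, 11.5, 9.39 and 7.59 CPM. Fn1, fibronectin, had the largest extra CV of the 30, 189%, with 44.3, 3.62, 1.5, 0.410 and 0.871 CPM. The fibroblast and smooth muscle list summed to 2.83 CPM in mouse 1 and 5.18 to 9.55 CPM in the others. None of its genes reached a mean of 100 counts, and which cells the Fn1 counts come from was not tested. Me1, malic enzyme, was at 93.3, 41.1, 14.9, 11.6 and 7.53 CPM, and Gm8113 and Cnbd2 were highest in mouse 1 too.

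The goblet and Paneth lists showed a mixed picture. Of 11 goblet genes with enough counts, 3 exceeded 50% (Clca1, Spink4 and Spdef), and all 3 were highest in mouse 1. Beside this count and those below, 1.31% of all genes examined exceeded 50%. Of all protein-coding genes examined, 40.7% were highest and 17.7% lowest in mouse 1. A few genes highest in mouse 1 are therefore not particular to a list. Retnlb, a goblet cell resistin-like protein and the lowest gene of that list, had 376, 105, 5, 2 and 2 counts. Of 17 Paneth genes, 3 exceeded 50%, Ang4, Clps and the Mptx1 described above, also highest in mouse 1, while Lyz1, Defa5 and Defa21 were lowest there. Clca1, Spdef and Clps were named after their values were seen. Defa21 was at 1703 TPM in mouse 1 and 4414 to 7588 TPM in the others, and it shares 41.4% of its windows with Defa22, which had the same pattern, 2336 TPM against 4102 to 7600 TPM. The microbiota-responsive defense list, with 6 of 8 measured genes above 50%, split: Reg3b, Reg3g and Reg1 were lowest in mouse 1, and Duox2, the dual oxidase, was highest there, at 148, 110, 72.9, 47.9 and 48.1 TPM.

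Cholesterol synthesis, MHC class II and clock genes had medians above the 8.49% of all genes but no gene above 50%. The median extra CV was 9.53% for cholesterol synthesis (12 genes), 17.0% for MHC class II (7 genes, led by Cd74) and 20.8% for the circadian clock (13 of 16 genes measured). The immediate early list, whose genes respond to handling of tissue, had 6 measured genes, none above 50% and a median of 14.1%. The interferon-stimulated list had 1 of 7 above 50%, beside 1.31% of all genes examined. The glutathione and xenobiotic list had 2 of 11, with a median of 38.9%, and 9 of its 11 genes were lowest in mouse 1, beside 17.7% of all protein-coding genes. The T cell list had 3 of 8 above 50% and a median of 48.1%, with 6 of the 8 lowest in mouse 1.

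Sex, the only label that differs among these mice, separated the sex-linked genes as labelled. Xist, the RNA that silences the inactive X chromosome, was at 1540, 2058 and 2261 CPM in the females and 1.25 and 2.73 CPM in the males. Of the Y-linked genes, Kdm5d was at 0.0895 to 0.154 CPM in females and 48.2 and 57.9 CPM in males. Eif2s3y, Ddx3y and Uty were likewise apart, with male values of 30.9 and 46.0, 26.4 and 43.7, and 14.5 and 38.7 CPM. Gm47283, annotated on the Y chromosome, did not follow: it was at 402, 285 and 92.9 CPM in the females and 50.6 and 49.3 CPM in the males, and 43.2% of its windows lie in another gene, Gm21887. Over all genes examined, all females lay above or all below all males for 15.1%. Among the 100 most variable genes this was so for 27, of which 8 were on the X or Y chromosome. Of the 19 others, 17 were highest in mouse 1, a female, so sex and the difference of that mouse cannot be told apart for them. With 3 against 2 mice, no permutation test can reach 0.05, and none was run.

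The genes that varied among the fed Nt+/+ mice were then followed in the other groups. The same measure was computed in the 14 other mice within each group and averaged in squares. It was above 50% for 0.908% of 10678 genes with enough counts in both. Of the 143 genes above 50% in the fed Nt+/+ mice, 131 could be compared, and 62 of these (47.3%) were above 50% in the other mice too, with a median of 48.5%, beside 10.7% over all genes. Of the 30 protein-coding genes, 26 were above 50% there. Within a single group, 20 were so among fed Nt-/- mice, 23 among Nt+/+ and 21 among Nt-/- mice without food. In all 3 of these groups at once, 14 were above 50%. All of these counts include the Y-linked Uty, Ddx3y, Eif2s3y and Kdm5d, at 160% to 164% in the other mice. Each group holds both females and males, so these genes vary in every group. For Fn1 the value was 169% among fed Nt-/- mice and 42.6% and 16.4% among Nt+/+ and Nt-/- mice without food. Below 50% were, among others, Me1 at 47.6%, Gm47283 at 44.3% and Cnbd2 at 40.1%. The median of the 30 was 72.6% among Nt-/- mice with food, and without food it was 71.7% for Nt+/+ and 55.4% for Nt-/-.

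Summed over the tuft list without Cd24a, the 19 mice ranged from 83.3 to 524 CPM, here with library sizes scaled over all 19. In the fed Nt+/+ group the values were 524, 198, 112, 101 and 98.7 CPM for mice 1 to 5, and in the fed Nt-/- group 322, 349, 135 and 177 CPM. Fasted Nt+/+ mice had 415, 134, 167, 108 and 102 CPM and fasted Nt-/- mice 280, 332, 83.3, 213 and 136 CPM. The mouse with number 1 or 2 in its title was the highest of each group. The tuft and Gsdmc genes were followed because they varied in the fed Nt+/+ group, so that group is not a separate observation. Numbers 1 and 2 are 2 of the 4 or 5 mice of a group, and no test was run. The labels do not say what a shared number means. The Gsdmc genes were summed at 4189, 1383, 556, 344 and 235 CPM in fed Nt+/+ mice and at 1585, 4071, 611 and 675 CPM in fed Nt-/- mice. Without food they lay at 6.20 to 51.4 CPM in Nt+/+ mice and at 2.24 to 28.2 CPM in Nt-/- mice, and again number 1 or 2 was the highest of each group. Reg3b and Reg3g together were at 420 CPM in fed Nt+/+ mouse 1, the lowest of its group, and at 357 CPM in fed Nt-/- mouse 2, the lowest of that group. The lowest in the 2 groups without food was number 1, at 976 CPM and 965 CPM.

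**Figure D5:**
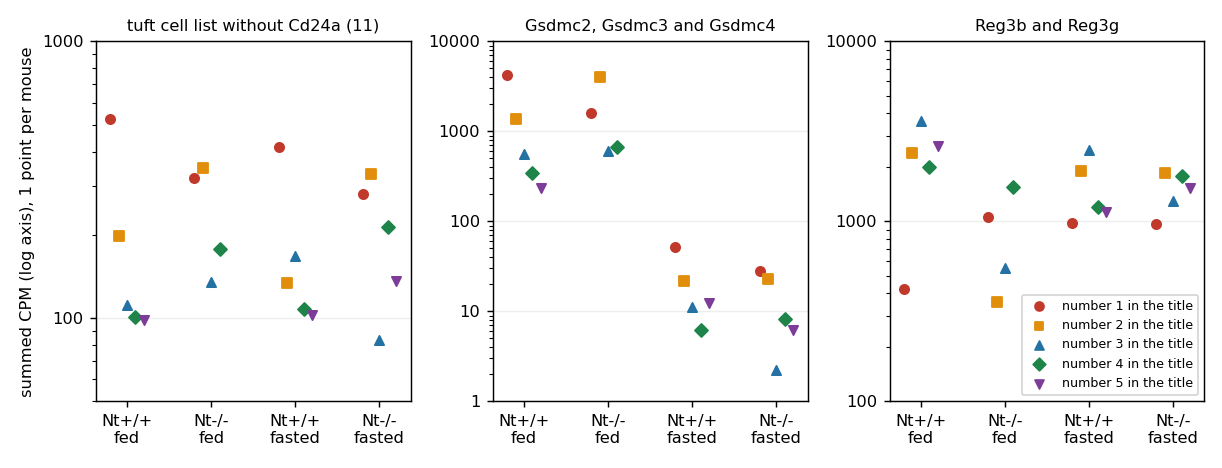
Summed CPM (log axis) of the tuft cell list without Cd24a, of Gsdmc2, Gsdmc3 and Gsdmc4, and of Reg3b and Reg3g in each of the 19 mice by group, with symbols for the number in the sample title. In each group the highest tuft and Gsdmc values belong to number 1 or 2. They reach 524 CPM and 4189 CPM in the fed Nt+/+ mice, whose spread led to these sets.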

How the data were processed

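Per the labels and the study's methods, total RNA of isolated crypts was depleted of ribosomal RNA and sequenced as single-end reads, which were trimmed with Trimmomatic 0.39 and mapped with RSEM to Ensembl transcripts of GRCm38. The RSEM version and strand setting are not given in the sources used here. The authors deposited for each mouse RSEM's expected count per gene, an estimated count in which a read that fits several genes is divided among them, and its effective length in bases. No other column was used.

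The 55487 gene IDs were matched to GENCODE M21, and 260 found no name. TPM was computed over genes with a median effective length of at least 200 bases. CPM used TMM library sizes from edgeR 4.0.16 on rounded counts (R 4.3.3). The extra CV, for genes with a mean of at least 100 expected counts, is the SD over mice divided by the mean, less the counting part in squares. The measure was tested on simulated data. Shared windows of 98 bases were counted over GENCODE transcripts on both strands. Values of a single mouse carry counting error only, and CVs over 5 mice are imprecise. No test between groups was run, and Dixon's criterion for 1 outlying sample among 5 was applied to the values in the closing section.

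The genes named are the 25 most abundant protein-coding genes, the 20 most abundant non-coding genes, the 30 protein-coding and 10 non-coding genes with the largest extra CV, the 10 protein-coding genes with the smallest, up to 6 members of each list by level, and all sex-linked genes listed. The lists and members were chosen with earlier results of these data known. Alternatives were another effective length minimum, TPM over protein-coding genes, CPM without length, DESeq2 1.42.0 size factors, unscaled totals, other count minimums, the SD of log2(CPM + 1), edgeR's dispersion and leaving out each mouse. Leaving out ribosomal RNA genes was chosen after seeing the data. Some genes and a sequence that these rules would name are not reported here.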

Additional observations from a re-analysis of the deposited data

Results flagged for a closer look

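Of 79 values (shares of RNA classes, sums of gene lists, and the most variable protein-coding and non-coding genes), 10 had 1 mouse whose gap to the nearest other mouse, divided by the range of the 5 on a log2 scale, exceeded 0.71, and in all 10 it was mouse 1. Chance alone is expected to flag about 1 in 20 such groups, and the values are not independent, since the genes were chosen for their spread and share libraries. The share of mitochondrial ribosomal RNA is the sum of mt-Rnr1 and mt-Rnr2, which were flagged again. The class shares of a mouse add up to the whole. A class that is high in mouse 1, such as nuclear ribosomal RNA at 11.5%, lowers the shares of the others. No explanation was tested.

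Mouse 1 was the highest, with this ratio in each case, for the share of mitochondrial ribosomal RNA (0.848), mt-Rnr1 (0.798), mt-Rnr2 (0.860), AC158975.2 (0.807), Gm42427 (0.823), Pou2f3 (0.728), Reg4 (0.730) and Tspan6 (0.733). It was the lowest for the share of nuclear protein-coding counts (0.761) and for the summed TPM of the microbiota-responsive defense list (0.774), which was 840 TPM in mouse 1 and 3782 to 5869 TPM in the other mice. On the CPM scale, which is less affected by ribosomal RNA, that list was at 1341 CPM in mouse 1 and 2362 to 4104 CPM in the others. The flag was set on the TPM sums, and the CPM sums give a ratio below 0.71.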

How the results depend on the processing

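No paired analysis was possible because no result comes from a test and the report has 1 group. With a minimum effective length of 500 bases, which removes most defensins, 8 of the 25 most abundant genes stayed among the 25, and the new 25 held 10.9% of the protein-coding level instead of 27.3%. With CPM and no length, 13 of the 25 stayed and the share was 9.80%. Without nuclear ribosomal RNA genes, the median share of miscellaneous RNAs and ribozymes was 4.59% instead of 4.06%. The median extra CV of 8.49% became 9.51% on unscaled totals, 9.44% with a minimum of 20 counts and 12.1% as edgeR's tagwise value, and leaving out 1 mouse at a time gave 6.97% to 8.96%. The 143 genes above 50% became 348 with a minimum of 20 counts, 52 with 500, 4516 with no filter and 73 by edgeR's value, and 56 to 180 without 1 mouse. Of the 30 most variable protein-coding genes, 15 stayed among the 30 with a minimum of 20 counts, 12 with 500, 0 with no filter, and 13 to 28 without 1 mouse, the 13 without mouse 1. In Nt-/- mice without food the median extra CV of the 30 was 55.4%, against 69.9% over the other groups. Fewer or more genes examined is what a count minimum changes, and other causes were not tested. The remaining alternatives, among them DESeq2 size factors, moved these results by less than the spread. Of 302 values of single genes, 269 did so too, while 33 moved. The 269 include values under other count minimums, which cannot change the extra CV of a single gene. Without mouse 1, only 22 of the 30 genes kept enough counts to be compared, and 10 of these moved. The median counting CV was 3.88%, and small spreads cannot be seen in genes with few counts.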
